A study of Mus musculus with 12 samples.

Results

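Regions of H3K4me2 listed in liver-specific LSD1 knockout (LSD1-LKO) mice and not in controls numbered 2079, taken from the 50675 entries of the LSD1-LKO peak list and the 109150 entries of the 3 lists of the study. Members were selected on their peak calls alone. An entry was a member when the peaks of the 2 LSD1-LKO libraries overlapped by 600 bp or more and the interval of the first-listed library overlapped no interval of either control library. Of the 20887 entries with that overlap, 2079 (9.95%) were members and 18808 overlapped a control interval (called shared entries below). With the lists exchanged, 1506 of 20740 control entries (7.26%) overlapped no LSD1-LKO interval (called control-only entries). These counts and the members' own enrichment follow from the rule, so they are given as a description, without a test.

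The livers came from C57BL/6 mice with both Lsd1 (Kdm1a) alleles floxed. LSD1-LKO mice received AAV8-TBG-Cre and control mice AAV8-TBG-GFP by tail vein as adults, so both groups carried the floxed alleles and a virus. The TBG promoter drives Cre in hepatocytes, and in this bulk tissue the other liver cells still had LSD1. LSD1 itself was mapped in liver of wild-type C57BL/6 mice. Each of these 3 groups had 2 ChIP libraries and 2 control libraries. The mice of the study were fed a high-fat diet after the injection, but the diet of the animals used for ChIP-seq is not given in the sources used here. In bulk tissue, fewer cells of a type and less mark per cell cannot be told apart, and the peak lists do not show the deletion itself.

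H3K4me2 is dimethylation of lysine 4 of histone H3, a mark of active and poised promoters and enhancers. LSD1 removes methyl groups from H3K4me1 and H3K4me2, usually as part of the CoREST co-repressor complex, and it can also act on H3K9 methylation. Regions that gain H3K4me2 after loss of LSD1 are therefore the kind of place where its demethylase activity is looked for. Members are regions listed in LSD1-LKO and not in control liver, which does not show that control liver lacked the mark. The annotation of members and the LSD1 peaks in wild-type liver were not used by the rule.

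Sequences of 5 members that overlapped an LSD1 peak are given to show how different the regions were in base composition. The first 3 are the promoter members of highest rank with an LSD1 peak that held a 300-bp window free of annotated exons, where rank means the average of both libraries in −log10 p-value. The windows near Trpm8 and Fgf21 are distal and were chosen after their values were seen. All are printed 5′ to 3′ on the plus strand of mm10 (GRCm38, RefSeq GRCm38.p6 sequence). Capitals mark letters of searched motifs, here C/EBP in the Thap12 window and SP/KLF in the Phtf2 and Tns2 windows, with no match in the other 2.
Thap12 promoter member, chr7:98703969-98704268: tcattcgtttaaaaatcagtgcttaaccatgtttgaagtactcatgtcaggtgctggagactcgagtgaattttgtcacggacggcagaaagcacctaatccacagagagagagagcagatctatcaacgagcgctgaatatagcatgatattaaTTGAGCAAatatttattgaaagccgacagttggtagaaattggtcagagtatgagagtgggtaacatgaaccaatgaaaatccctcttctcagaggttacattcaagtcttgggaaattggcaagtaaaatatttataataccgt
Phtf2 promoter member, chr5:20881381-20881680: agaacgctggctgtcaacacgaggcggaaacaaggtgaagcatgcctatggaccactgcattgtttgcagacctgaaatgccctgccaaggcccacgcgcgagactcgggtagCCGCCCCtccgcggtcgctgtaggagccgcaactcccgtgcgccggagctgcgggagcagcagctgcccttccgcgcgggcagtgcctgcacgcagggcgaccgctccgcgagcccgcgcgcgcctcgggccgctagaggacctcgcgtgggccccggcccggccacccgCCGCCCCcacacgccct
Tns2 promoter member, chr15:102100562-102100861: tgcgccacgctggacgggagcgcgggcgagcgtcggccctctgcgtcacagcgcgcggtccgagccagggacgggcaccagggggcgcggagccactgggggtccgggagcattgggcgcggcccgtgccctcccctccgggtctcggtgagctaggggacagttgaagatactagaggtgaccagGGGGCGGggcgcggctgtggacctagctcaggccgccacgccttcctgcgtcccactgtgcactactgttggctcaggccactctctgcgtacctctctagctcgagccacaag
Trpm8 distal member, chr1:88287113-88287412: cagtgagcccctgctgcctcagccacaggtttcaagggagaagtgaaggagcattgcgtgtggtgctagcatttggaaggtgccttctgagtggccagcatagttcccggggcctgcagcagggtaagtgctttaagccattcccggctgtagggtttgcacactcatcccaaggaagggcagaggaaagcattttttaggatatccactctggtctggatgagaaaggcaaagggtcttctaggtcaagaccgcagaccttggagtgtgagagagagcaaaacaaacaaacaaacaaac
Fgf21 distal member, chr7:45610172-45610471: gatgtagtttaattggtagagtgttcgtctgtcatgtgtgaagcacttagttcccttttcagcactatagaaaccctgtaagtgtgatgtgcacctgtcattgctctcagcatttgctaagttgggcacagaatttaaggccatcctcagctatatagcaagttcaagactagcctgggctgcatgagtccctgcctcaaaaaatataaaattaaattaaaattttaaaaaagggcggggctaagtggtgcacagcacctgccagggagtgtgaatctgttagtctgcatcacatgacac
The Phtf2 window had a GC content of 71.7% and 37 CpG dinucleotides, and the Tns2 window 70.7% and 30. The Thap12 window had 39.0% GC and 8 CpG, although it also lay at a promoter. The distal windows held 4 (Trpm8) and 2 (Fgf21) CpG dinucleotides. LSD1 peaks covered 228 of the 300 bp printed for Phtf2, all 300 for Tns2, 90 for Trpm8 and none of the printed bases for Thap12 and Fgf21, where the LSD1 peak overlapped an end of the member and lay in part (Thap12) or mostly (Fgf21) outside it.

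Members were weaker and narrower than the shared entries in both LSD1-LKO libraries. Fold enrichment, the ratio of ChIP signal to local background that MACS gives at a peak's summit, had a median of 3.32 (1.15 to 8.86) and 4.29 (1.72 to 11.8) in the first-listed and second-listed LSD1-LKO library. Shared entries had medians of 4.06 and 6.00. The median −log10 p-value by library was 4.13 and 6.35 in members against 5.87 and 11.8 in shared entries, and control-only entries were close to members with 4.18 and 6.39. Both libraries gave a MACS p-value of 1e-05 or less at 457 members (22.0%), against 64.0% of shared entries. A q-value above 0.05 was listed for 908 members (43.7%) by the first-listed library and for 97 (4.67%) by the second-listed one. The same shares were 15.4% and 0.712% in shared entries and 34.2% and 7.10% in control-only entries.

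**Figure D1:**
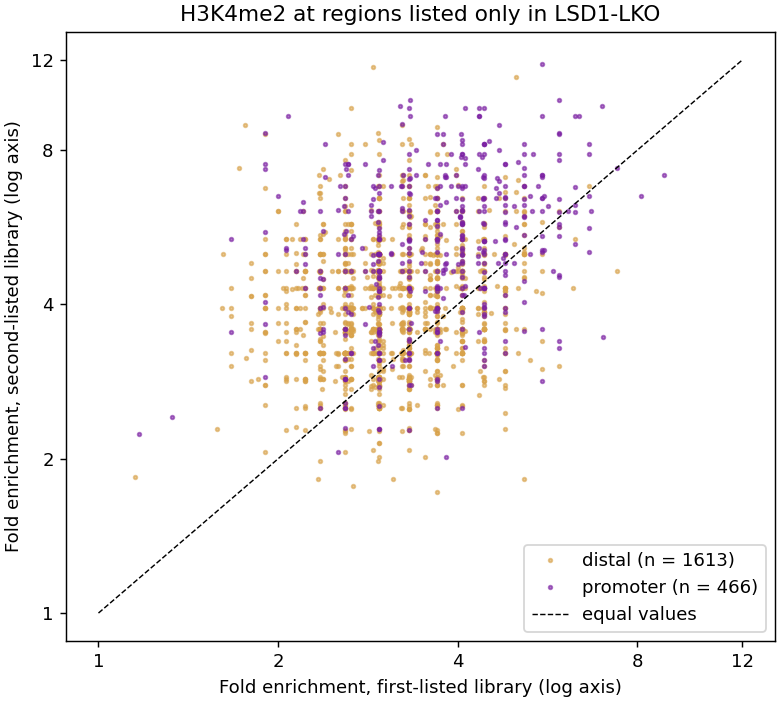
H3K4me2 fold enrichment of the 2079 members in the first-listed (x axis) and second-listed (y axis) LSD1-LKO library, both on log axes, with 466 promoter members in purple and 1613 distal members in orange. The dashed line marks equal values, and 1597 members (76.8%) lie above it.

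The 2 libraries therefore did not contribute alike. In the plot of fold enrichment by library, 76.8% of members were higher in the second-listed library, and the same held for 85.6% of shared entries. The second-listed peaks were also wider, with a median of 1406 bp against 808 bp at members. In both H3K4me2 lists the peak names of the first-listed library hold the word picard, the name of a read-processing toolkit, and those of the second-listed library do not, and the effect of this on the peaks was not tested. When only the second-listed LSD1-LKO intervals were used, with a width of 600 bp or more in place of the overlap, the rule took 7620 regions. With only the first-listed intervals it took 3170. Each list, control included, holds only peaks found in both libraries of its group, so neither count is a call from a single library.

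Promoter members had the stronger H3K4me2 of the 2 classes, as was also the case in shared entries. Median fold enrichment was 3.69 and 5.31 in the 466 promoter members and 3.20 and 3.94 in the 1613 distal members. In shared entries it was 4.41 and 6.44 at promoters and 3.60 and 5.01 in distal regions. That strict p-value in both libraries was met by 225 promoter members (48.3%) and 232 distal members (14.4%). By mean −log10 p-value the median promoter member stood at percentile 65.0 of the whole LSD1-LKO list and the median distal member at percentile 38.1.

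The threshold of 600 bp cut through a continuous range. Within 50 bp above it lay 478 members, and within 50 bp below it lay 586 entries with no control interval. Just inside it lay members near Tent4b, Hyal5 and Tmem220, each with an overlap of 600 bp, with fold enrichments of 2.94 and 8.64, 3.24 and 6.09, and 3.69 and 5.07. Just outside lay entries near Gm10717, Ssc4d and Mcrs1, each with an overlap 1 bp too short, with 1.22 and 2.00, 3.09 and 9.34, and 3.32 and 6.52. At a minimum of 400, 800 or 1000 bp the rule took 5638, 773 or 329 regions.

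Many members were neighbours of control peaks and not isolated regions. The nearest control interval lay a median of 4041 bp away (quartiles 859 and 15486 bp). It was within 1 kb for 563 members (27.1%), and 687 members lay more than 10 kb from any control interval. The second-listed partner interval of 368 members (17.7%) did overlap a control interval. Control-only entries were likewise close to the other list, with a median of 3041 bp to the nearest LSD1-LKO interval. Of them 32.0% lay within 1 kb of one, and 13.7% had a partner interval that overlapped one. At 1711 members neither LSD1-LKO interval touched a control interval. When control intervals were widened by 2 kb on either side 1307 members were left. Members that met the strict p-value and lay over 10 kb from control numbered 161.

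Members lay mostly away from promoters. A promoter, taken as 1 kb on either side of a transcription start site (TSS) of a protein-coding gene, was overlapped by 466 of 2079 members (22.4%, 95% Wilson confidence interval 20.7 to 24.3). The share was 67.1% (66.5 to 67.8) in shared entries and 62.7% in all LSD1-LKO entries of 600 bp or more. Control-only entries lay between, near the members, at 27.3% (25.1 to 29.6). These intervals cover counting error only, since regions are not replicates. Seen from the promoter side, 3.56% of promoter entries and 20.7% of distal entries of the LSD1-LKO list were members.

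**Figure D2:**
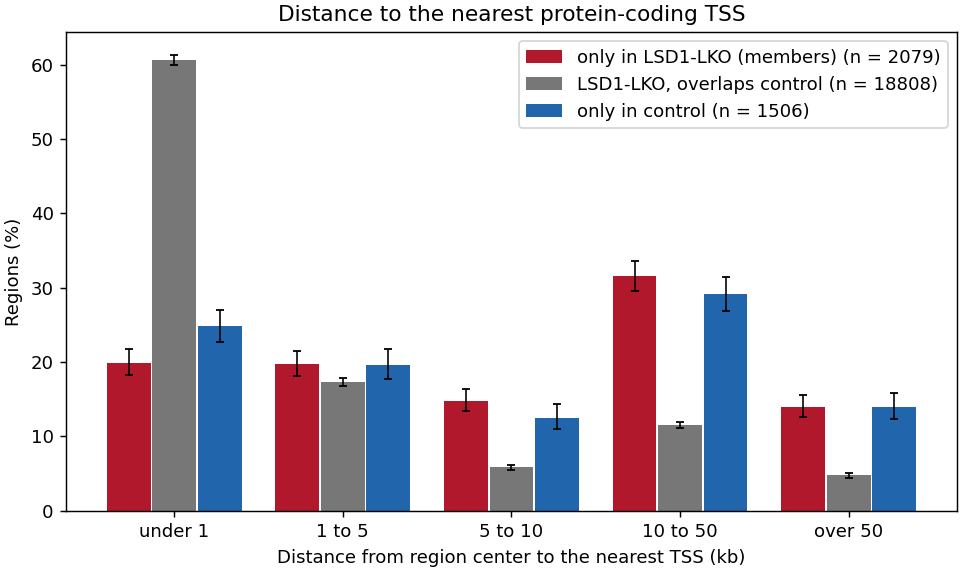
Share of regions (y axis, %) by distance from the region's center to the nearest protein-coding TSS (x axis, kb) for members (red), shared LSD1-LKO entries (gray) and control-only entries (blue), with 95% Wilson intervals. Under 1 kb lie 19.9% of members and 60.6% of shared entries, and control-only entries lie near members, with 24.8% under 1 kb.

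The median member center was 8326 bp from a TSS, against 635 bp for shared entries and 6994 bp for control-only entries. Centers over 10 kb from any TSS made up 45.6% of members, 16.3% of shared entries and 43.1% of control-only entries. Introns held 1211 member centers (58.2%), intergenic sequence 617 (29.7%), untranslated exons 94 (4.52%) and other exons 157 (7.55%). The same shares were 53.2%, 19%, 12.4% and 15.3% in shared entries and 59.6%, 26.6%, 6.11% and 7.64% in control-only entries. Members lay on all autosomes and the X chromosome, at 8.55% (chromosome 11) to 11.8% (chromosome 4) of the entries of each. The promoter share depended on peak strength, since 49.2% of the 457 members of strict p-value lay at promoters, against 79.1% of shared entries under the same condition.

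The base composition followed this position. In 300-bp windows at the center, promoter members had a median of 8 CpG dinucleotides, against 12 at shared promoter entries and 9 at control-only promoter entries. Windows with 15 or more CpG made up 28.5% of promoter members, 44.9% of shared promoter entries and 32.6% of control-only promoter entries. Distal members had a median of 3 CpG and a GC content of 47.0%.

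At 222 of the 407 genes nearest to a promoter member, no control interval lay within 1 kb of any annotated TSS of the gene. This count follows in part from the rule, and no matching count was made for control-only entries. There were 264 members at such genes, 57 of them with an LSD1 peak. Chst14, a dermatan sulfotransferase gene, had fold enrichments of 5.54 and 11.8 at chr2:118926103-118927332, and the nearest control interval was 11461 bp away. Haus6, which encodes a subunit of the augmin complex of the mitotic spindle, had 8.86 and 7.16 at chr4:86611316-86612705, 34077 bp from control. Usp37, a deubiquitinase gene, had 7.39 in both libraries at chr1:74504623-74505697, 81306 bp from control. These 3 members were named for their high rank in the same 2 libraries, so their high values follow from that choice. None of them overlapped an LSD1 peak.

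Tcf7, which encodes a transcription factor of Wnt signaling best known from T cells, held 2 members at its promoters. The first, chr11:52282420-52283451, had fold enrichments of 6.98 and 9.74, and its center lay in an untranslated exon. It overlapped an LSD1 peak of fold enrichment 2.90 and 5.93 in the 2 wild-type libraries, and the nearest control H3K4me2 interval was 47303 bp away. Spin1, which encodes a reader of methylated H3K4, had 6.28 and 9.31 upstream of its TSS with an LSD1 peak of 2.97 and 3.03. That peak met only the end of the Spin1 member, from position 51100762 to 51100794. Thap12 had 8.13 and 6.52 with an LSD1 peak of 4.01 and 1.99, and Phtf2 had 5.54 and 9.31 with 3.73 and 3.51. Hnrnpdl, an RNA-binding protein gene, had a weaker first library with 4.05 and 7.77. These 5 were the promoter members of highest rank with an LSD1 peak.

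By rank the first promoter members were at the predicted genes Gm10801 and Gm10800 on chromosome 2, but their fold enrichments were only 1.33 and 2.41, and 1.17 and 2.24, beside −log10 p-values of 61.59 and 61.35 in the second-listed library. A distal member near Gm21738 was of the same kind, with 1.15 and 1.84 and a −log10 p-value of 29.59. The genome sequence masked 44.7%, 98.0% and 75% of their central 300 bp as repeats, against a median of 10.3% over all members. Without these 3 members, an alternative chosen after seeing the data, the promoter share and the LSD1 shares of members moved by less than their counting error.

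Some of the largest members were parts of wide H3K4me2 domains. At Tns2, which encodes a tensin of focal adhesions, 3 members with overlaps of 2500, 2310 and 907 bp lay on 1 second-listed peak 10190 bp wide. Their first-listed fold enrichments were 3.81, 4.35 and 6.39, the second-listed value was 9.34 for all, and 2 of them overlapped LSD1 peaks. That wide peak met control intervals of under 1 kb at its downstream end, 2154 bp or more from any of the 3 members, and no control interval lay at a promoter of the gene. Sox6, which encodes a developmental transcription factor, had the longest member, with an overlap of 3590 bp at its promoter and fold enrichments of 5.17 and 6.80, and its partner interval met no control interval. At Fam169b a member of 3205 bp had 4.80 and 6.80 with an LSD1 peak of 4.98 and 4.72. Rcor1, the gene of the LSD1 partner CoREST, had fold enrichments of 5.91 and 10 over chr12:111039396-111040796 at its promoter, 215 bp from a control interval, and no LSD1 peak there.

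**Figure D3:**
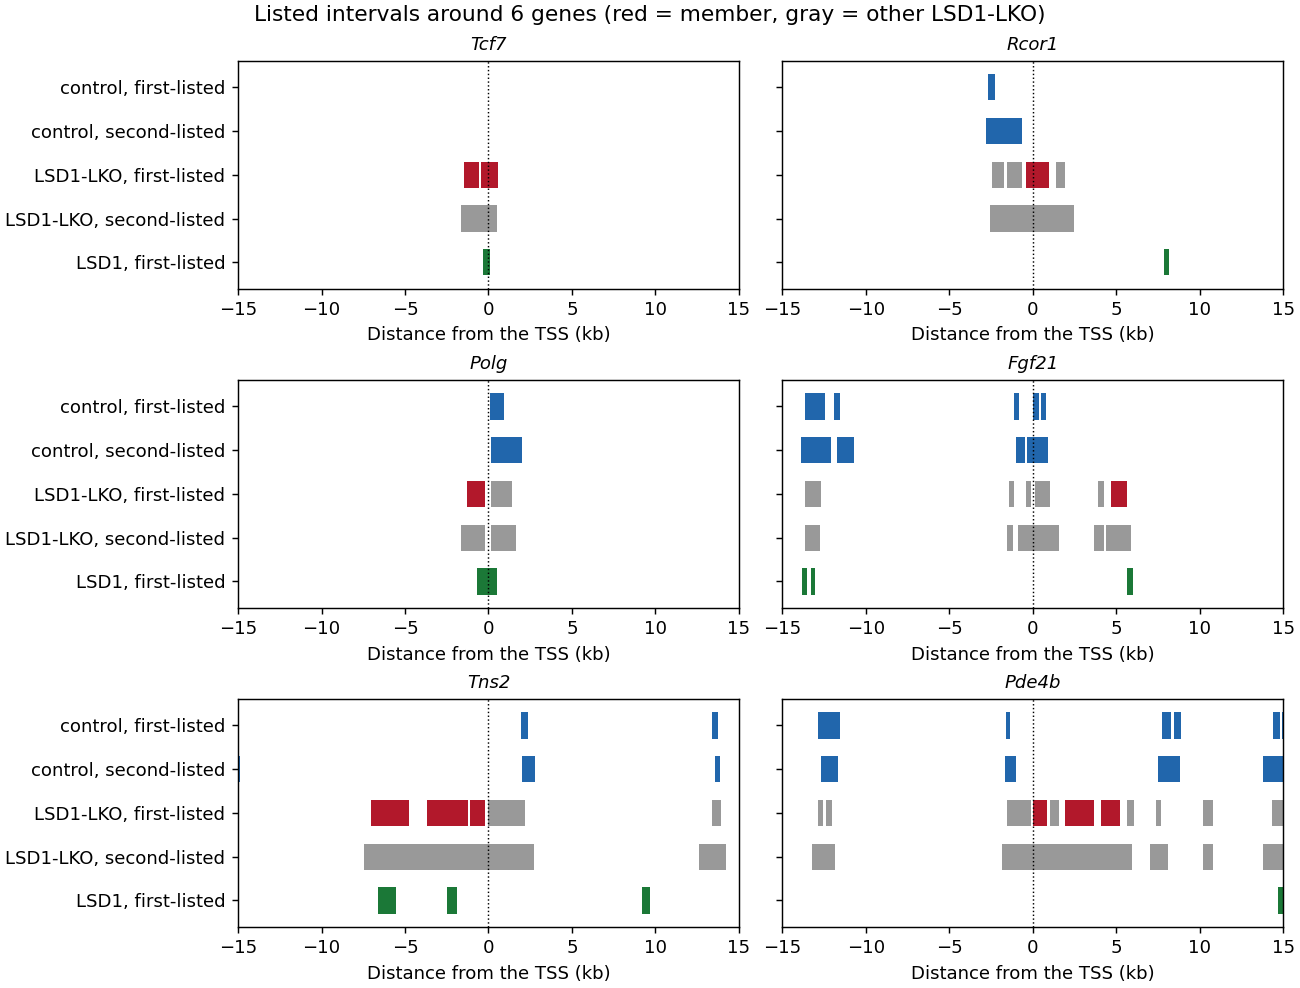
Listed intervals around 6 genes by distance from a TSS (x axis, kb, in the direction of transcription), with rows for the 2 control libraries (blue), the 2 LSD1-LKO libraries (gray, with members in red) and LSD1 in wild-type liver (green). At Tcf7 no control interval is listed in the 30-kb span, whereas at Rcor1, Tns2 and Pde4b the second-listed LSD1-LKO peak that holds members also meets a control interval.

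The map of intervals shows the same contrast at other genes of the study. Polg encodes the catalytic subunit of mitochondrial DNA polymerase. Its member, chr7:79466571-79467665, lay upstream of the TSS with fold enrichments of 3.69 and 6.09 and a partner that met no control interval. It overlapped an LSD1 peak of 6.64 and 4.61, and a control interval began 285 bp away, on the other side of the TSS, where LSD1-LKO intervals were listed as well. Fgf21, the gene of a hepatokine, had a member 5168 bp downstream of its TSS at chr7:45609827-45610816, with 2.35 and 5.01, an LSD1 peak of 4.15 and 2.14, and a control interval 3738 bp away. Both genes were chosen after their values were seen, because the study treats them by name.

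Distal members of highest rank lay near genes of varied function. The member near Cs, which encodes citrate synthase, had fold enrichments of 2.88 and 11.6, the one near Zfp575, a zinc finger gene, 5.0 and 11.1, and the one near Adra1d, an adrenergic receptor gene, 6.65 and 6.80. Mthfd2, which encodes a mitochondrial folate enzyme, had 2.65 and 9.67, and Trim7, an E3 ligase gene, 5.17 and 5.94. The members near Cs, Mthfd2 and Trim7 had partner intervals that overlapped a control interval, and those near Zfp575 and Adra1d did not. Near Pde4b, a cAMP phosphodiesterase gene, 2 distal members shared a second-listed peak with a fold enrichment of 8.21 and had 3.23 and 3.34 in the first-listed library.

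Among distal members with an LSD1 peak, the highest ranks were near Nab2, a co-repressor of EGR factors (3.69 and 8.89), Trpm8, an ion channel gene (3.20 and 4.4), Zdhhc13, a palmitoyltransferase gene (3.23 and 8.95), Pim1, a kinase gene (3.78 and 8.23), and Slc38a10 (1.90 and 8.60). LSD1 at the Trpm8 member had the highest −log10 p-values of these, 14.42 and 11.94, at fold enrichments of 3.70 and 3.23. By fold enrichment LSD1 was higher at Nab2 in the first-listed library (4.63) and at Slc38a10 in the second-listed one (4.19). The Zdhhc13 member was 38570 bp from a control interval. The Nab2, Trpm8 and Slc38a10 members were within 197 bp of one. At Slc38a10 the LSD1 peak met only the end of the member, from position 120184816 to 120184825. The first-listed −log10 p-value of H3K4me2 at that member was 1.77.

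Most nearby genes had a single member. The 2079 members had 1680 nearest protein-coding genes, which is 7.66% of the 21924 in the annotation. Of these, 1381 genes had 1 member, 232 had 2 and 67 had 3 or more. Fam169b, Mtss1, which encodes an actin-binding membrane protein, and Pde4b had 6 each. At Fam169b, 4 of the 6 lay on 1 second-listed peak of 11328 bp. The 5 members nearest to Myc lay 92013 to 358002 bp downstream of its TSS. Their centers were in introns, counted over all annotated genes and not those of Myc. The 5 nearest to Prkce, a protein kinase C gene, were likewise distal. Rreb1, Rxra and Zmiz1 also had 5 each, and ties were broken by gene name. In all, 145 members shared a second-listed peak with another member, and 315 lay within 5 kb of another member.

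LSD1 peaks were less frequent at members than at shared entries, and about as frequent as at control-only entries. An LSD1 peak of wild-type liver overlapped 301 of 2079 members (14.5%, 13 to 16.1), 29.6% of shared entries (29.0 to 30.3), 15.4% of control-only entries (13.7 to 17.3) and 28.1% of all LSD1-LKO entries of 600 bp or more. In promoter members the share was 85 of 466 (18.2%, 15 to 22.0), against 34.3% (33.5 to 35.1) in shared and 20% (16.4 to 24.1) in control-only entries. In distal members it was 216 of 1613 (13.4%, 11.8 to 15.1), against 20.1% (19.1 to 21.1) and 13.7% (11.8 to 15.9). Members without an LSD1 peak thus numbered 1778.

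**Figure D4:**
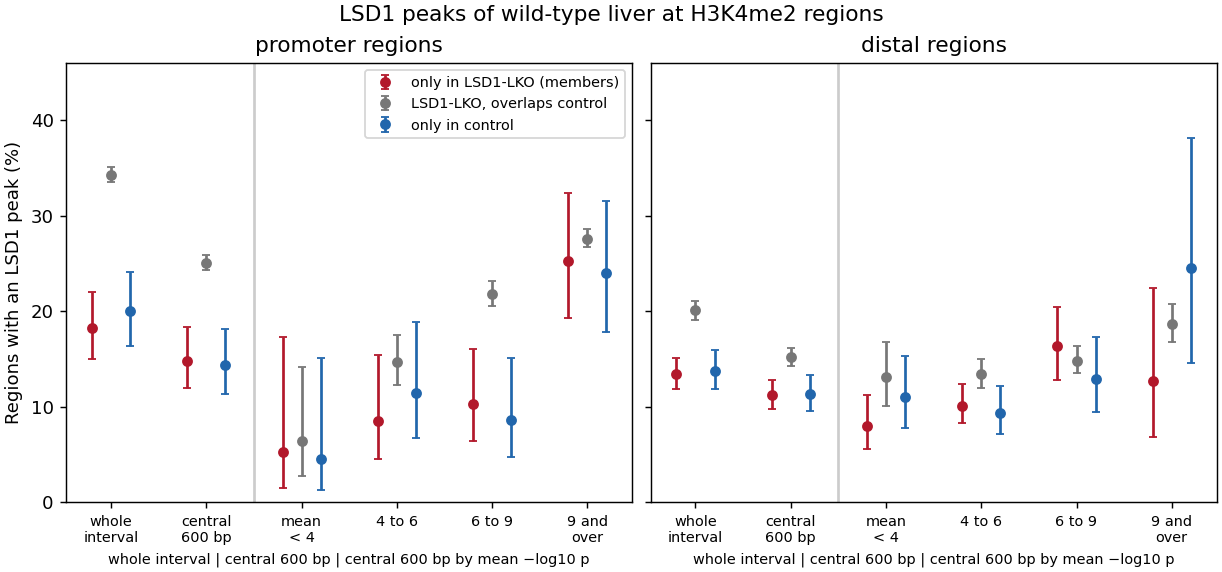
Share of regions that hold an LSD1 peak (y axis, %, with 95% Wilson intervals) at promoter (left) and distal regions (right), for the whole interval, for the central 600 bp, and for the central 600 bp by mean −log10 p-value of H3K4me2. Members (red) lie below shared entries (gray) for the whole interval. By strength members are lower in every class except distal regions of 6 to 9. Their intervals lie apart only at promoters of 6 to 9, and those at promoters of 9 and over overlap at 25.3% and 27.6%.

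The gap was smaller in windows of equal width. Members had the lower share in every class of H3K4me2 strength except distal regions at a mean −log10 p-value of 6 to 9. In most classes the intervals of members and shared entries overlapped, which does not show equal shares. In a window of 600 bp at the center, equal for all, LSD1 peaks were found in 14.8% (11.9 to 18.3) of promoter members and 25.1% (24.3 to 25.9) of shared promoter entries, and in 11.2% (9.71 to 12.8) of distal members and 15.2% (14.3 to 16.1) of shared distal entries. The entries were then split by mean −log10 p-value, with limits chosen after seeing the data. At promoters with a mean of 9 and over the central window held an LSD1 peak in 25.3% (19.3 to 32.4) of 166 members and 27.6% (26.7 to 28.6) of shared entries. At promoters with a mean of 6 to 9 it did in 10.3% (6.41 to 16.0) of 156 members and 21.8% (20.5 to 23.2) of shared entries. In distal regions members were above shared entries in that class alone, with 16.3% (12.8 to 20.4) and 14.8% (13.5 to 16.3). Distal members had 12.7% (6.81 to 22.4) against 18.7% (16.8 to 20.8) at a mean of 9 and over. At 4 to 6 they had 10.1% (8.24 to 12.4) against 13.4% (11.9 to 15). Under 4 they had 7.97% (5.60 to 11.2) against 13.1% (10.1 to 16.8). Promoter members had 8.49% (4.53 to 15.4) against 14.7% (12.3 to 17.5) at 4 to 6. Under 4 they had 5.26% (1.46 to 17.3) against 6.41% (2.77 to 14.1). The intervals of members and shared entries thus lay apart only at promoters with a mean of 6 to 9.

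The LSD1 peaks at members were of middling strength. There were 304 of them, with median fold enrichments of 3.08 and 3.23, against 2.90 and 3.01 for all 14584 LSD1 peaks and 3.32 and 3.51 for the 5428 at shared entries. Of these, 34 met the strict p-value in both LSD1 libraries, so under that limit 1.68% of members and 6.67% of shared entries held an LSD1 peak. The LSD1 share was similar near and far from control peaks, with 13.9% (11.2 to 17) of members within 1 kb of a control interval and 13.2% (10.9 to 16.0) of those over 10 kb away.

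Gene groups were compared by the share of their nearest LSD1-LKO entries that were members, since genes with more entries have more chances. Genes of the LSD1 and CoREST complex and associated factors stood high, with 18 of 77 entries (23.4%, 15.3 to 34.0) against 9.95% of all entries. Among distal entries alone this was 16 of 42 (38.1%, 25 to 53.2) against 20.7%. These members were nearest to 9 of 27 genes. Entries near the same gene are not independent, so the intervals cover counting error only. Rcor1 had a distal member in addition to that at its promoter, Rreb1, a Ras-responsive zinc finger gene, had 5, and Zfp217 and Gse1, both found with CoREST, had 3 each. Their distal members were modest, such as 5.17 and 5.01 for the one of highest rank near Rreb1 and 2.91 and 4.17 for the one of highest rank near Gse1. With the lists exchanged the group gave 5 of 62 entries (8.06%) against 7.26%.

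**Figure D5:**
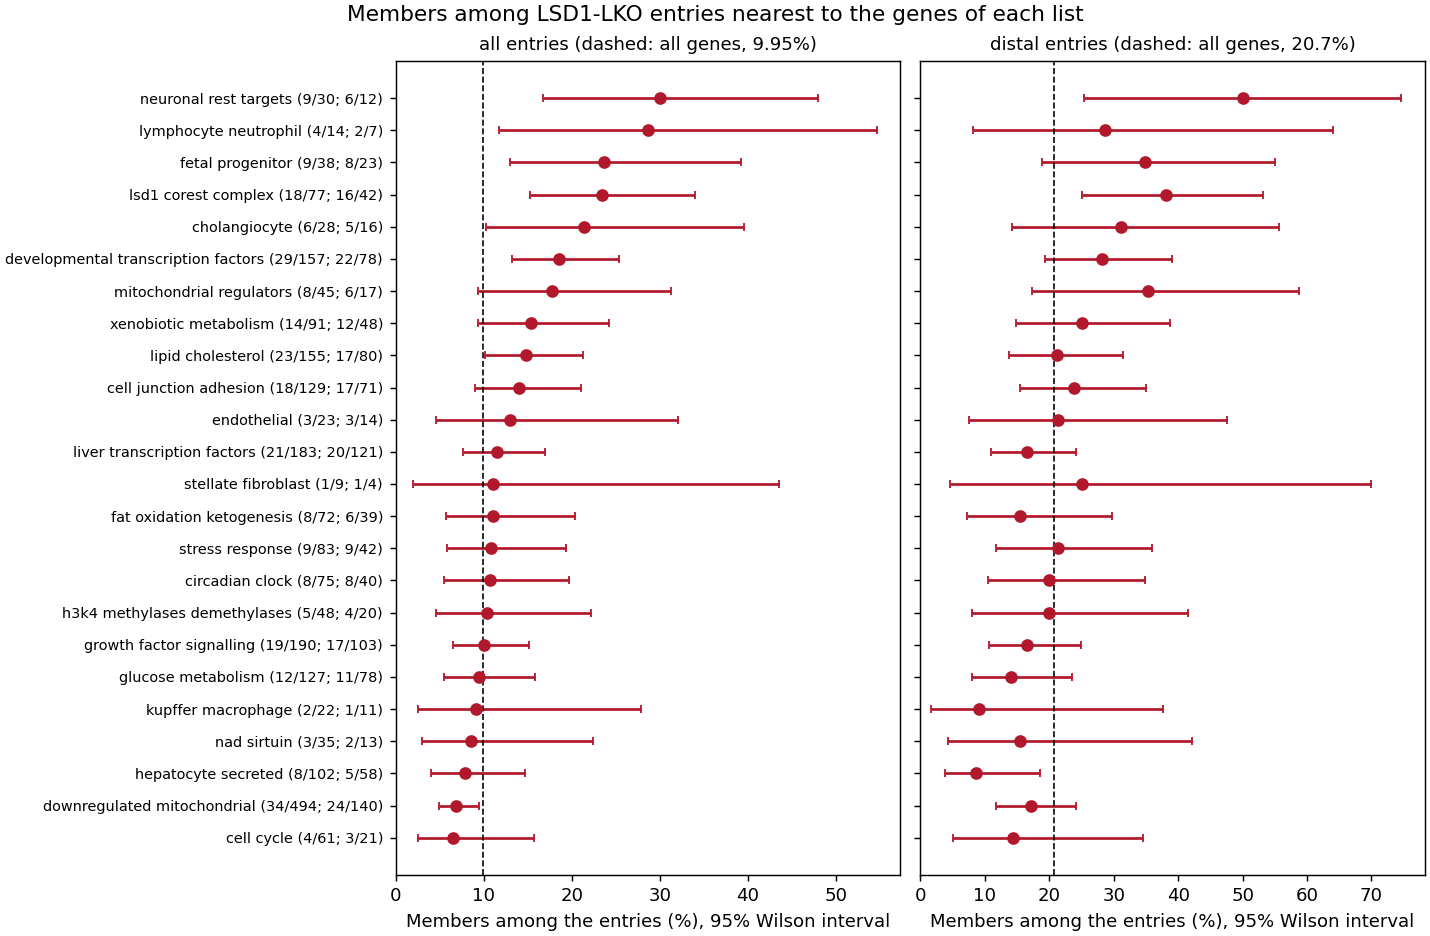
Share of LSD1-LKO entries nearest to the genes of each list that were members (x axis, %, with 95% Wilson intervals), for all entries (left) and distal entries (right), with member and entry counts beside each list. The dashed lines mark the shares over all genes, 9.95% and 20.7%, and the intervals of the neuronal and CoREST lists lie above both. These intervals cover counting error only, since entries near the same gene are not independent.

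Neuronal genes repressed by REST, a factor that recruits CoREST, gave 9 of 30 entries (30%, 16.7 to 47.9), and 6 of 12 distal entries. The control-only share was 2 of 25. They included Scn3b, a sodium channel subunit (3.69 and 4.65), Cacna1a, a calcium channel subunit (4.33 and 3.94), and Syp, a synaptic vesicle protein (3.32 and 4.65), all distal and none with an LSD1 peak. Developmental transcription factors gave 29 of 157 entries (18.5%, 13.2 to 25.3), at 21 of 102 genes. Sox6 led them, followed by Nkx2-2 (4.43 and 5.31) and Tshz1 (3.23 and 6.11). Among distal entries alone their share was 28.2% (19.4 to 39.0), an interval that holds the 20.7% of all genes, and with the lists exchanged it was 12.6%.

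Groups of liver metabolism were nearer to the background. Lipid and cholesterol genes gave 23 of 155 entries (14.8%, 10.1 to 21.3), at 17 of 50 genes, and 21.2% of their distal entries, so the excess over all entries was not seen in distal entries alone. Mttp, which loads lipid onto lipoproteins, had 3.0 and 7.67 at its promoter, Pnpla3, a lipid droplet hydrolase gene, 2.94 and 7.16 with an LSD1 peak, and Lpin1, a phosphatidate phosphatase gene, 3.53 and 7.16. Xenobiotic genes gave 14 of 91 entries (15.4%) and, with the lists exchanged, 17.9%. They included Cyp17a1 (4.43 and 4.65) and the bile acid and organic anion carriers Slc10a1 (3.69 and 4.50) and Slco1b2 (3.32 and 4.65). Glucose genes gave 12 of 127 (9.45%), among them Insr, the insulin receptor gene (3.69 and 6.44), Irs2 (2.94 and 5.73) and Ppp1r3c (2.94 and 5.01). Fat oxidation and ketogenesis gave 8 of 72 (11.1%), with Hadha (4.06 and 5.06) over an LSD1 peak. Stress response genes gave 9 of 83 (10.8%), led by Mthfd2, then Gclm (4.06 and 3.94) and Txnrd1 (4.06 and 3.69), both of antioxidant defense.

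Liver transcription factors gave 21 of 183 entries (11.5%, 7.63 to 16.9), at 14 of 33 genes. All but 1 of these members were distal and none overlapped an LSD1 peak. Foxa3 had 2.86 and 6.26 at a promoter, Hnf4a, a nuclear receptor of hepatocyte identity, 4.66 and 4.34 in an intron, and Rxra, the partner of many nuclear receptors, 4.06 and 5.01. Secreted hepatocyte proteins gave 8 of 102 (7.84%). Gc, the vitamin D binding protein gene, had 5.0 and 6.09, F2, the prothrombin gene, 5.91 and 4.57, and C3 2.2 and 6.09. The partner intervals of these last 3 members overlapped control intervals. Circadian clock genes gave 8 of 75 (10.7%), with Nfil3, Rora and Bhlhe40 at 3.69, 3.69 and 2.95 by the first-listed library and 5.01 by the other. Growth factor signaling gave 19 of 190 (10%), led by Prlr, the prolactin receptor gene, with 5.17 and 6.43 at a promoter 24154 bp from control, then Stat5b (3.32 and 6.09) and Jag1 (4.43 and 3.86). With the lists exchanged the shares were 9.29% for lipid and cholesterol, 5.83% for glucose, 2.90% for fat oxidation, 10.9% for stress response, 7.65% for liver transcription factors, 7.69% for secreted proteins, 8.20% for the clock and 8.43% for growth factor signaling.

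The 356 mitochondrial genes that the study lists as downregulated in LSD1-LKO liver, a list chosen on RNA of the same model, gave 34 of 494 entries (6.88%, 4.97 to 9.46), below the 9.95% of all entries. With the lists exchanged it was 47 of 560 (8.39%), beside the 7.26% of all control entries, and no interval or promoter split was made for that share. In distal entries the share was 17.1% (11.8 to 24.2), with the 20.7% of all genes inside the interval. Cox7a2, a subunit of cytochrome c oxidase, had 5.67 and 6.23 at its promoter, Letm1, an ion exchanger gene of the inner membrane, 5.54 and 6.44, and Crls1, which encodes cardiolipin synthase, 3.69 and 5.84 with an LSD1 peak. No control interval lay at the promoters of these 3 genes. Mitochondrial regulators gave 8 of 45 (17.8%, 9.29 to 31.3), namely Polg, Yy1 (3.97 and 7.34), Ppargc1b (2.65 and 5.01), Ppargc1a and Nfe2l2. NAD and sirtuin genes gave 3 of 35 (8.57%), at Sirt4 (2.94 and 4.30), Kynu (3.69 and 3.22) and Sirt5 (3.34 and 2.78).

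H3K4 methylases and demethylases gave 5 of 48 (10.4%). Setd1a, an H3K4 methyltransferase gene, had 5.17 and 6.80 at a promoter with an LSD1 peak of 4.45 and 2.73, and Smyd3 (3.32 and 5.37) and the demethylase gene Kdm5b (2.94 and 4.50) had distal members. Cell junction genes gave 18 of 129 (14.0%), 17 of them distal, near Jam3 (3.67 and 6.26), Cdh1 (2.34 and 7.16) and Cadm4 (3.60 and 5.01) among others. Cell cycle genes gave 4 of 61 (6.56%), with Top2a, the topoisomerase of dividing cells, at 4.69 and 6.96 at a promoter 14882 bp from control, then Cdkn2c (3.69 and 4.50) and Cdc25a (3.60 and 3.96). Fetal and progenitor genes gave 9 of 38 (23.7%, 13 to 39.2), near Myc, Sox9 (4.06 and 3.58), Igf2bp3 (2.58 and 4.18), Prom1 and Spp1. Of these members 8 were distal, and 5 were nearest to Myc. Among distal entries alone the share was 34.8% (18.8 to 55.1), an interval that holds the 20.7% of all distal entries. With the lists exchanged that group gave 17.9%, cell junction genes 13.7%, cell cycle genes 3.39%, H3K4 methylases and demethylases 1 of 50, mitochondrial regulators 7.69% and NAD and sirtuin genes 7.14%.

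Markers of other liver cells were counted beside these. Cholangiocyte genes gave 6 of 28 entries (21.4%, 10.2 to 39.5), including members near Cdh1, Sox9 and Spp1. Lymphocyte and neutrophil genes gave 4 of 14 (28.6%, 11.7 to 54.6), at Tcf7 and Bach2 (4.01 and 4.74). Endothelial genes gave 3 of 23 (13%), near Wnt9b, Stab2 and Lyve1 at 3.60, 2.94 and 2.00 by the first-listed library and 6.47, 6.80 and 6.09 by the other. Kupffer cell genes gave 2 of 22 (9.09%), and stellate cell genes 1 of 9 (11.1%), near Col3a1 (3.69 and 3.34). With the lists exchanged these marker lists were also high against the 7.26% of all control entries, with 15.8% for cholangiocytes, 3 of 13 (23.1%) for lymphocytes and neutrophils, 18.2% for endothelial cells and 13.3% for Kupffer cells, while stellate cell genes gave 0 of 10. Among the LSD1-LKO entries of 600 bp or more, secreted hepatocyte genes had 102 entries over 42 genes, and Kupffer cell genes 22 over 27. Whether the cell makeup of the samples bore on the members was not tested.

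Letters of estrogen-related receptors and of AP-1 were found in a minority of distal members, at shares somewhat above those of all distal entries. In 300-bp windows at the center, letters of the site of estrogen-related receptors (CAAGGTCA, both strands) were found in 3.66% (2.85 to 4.69) of distal members, 2.54% (2.18 to 2.96) of distal shared entries and 2.01% (1.33 to 3.02) of distal control-only entries, beside 2.77% of all distal LSD1-LKO entries. AP-1 letters (TGANTCA) were in 11% (9.60 to 12.7) of distal members, 8.67% (7.99 to 9.4) of distal shared and 8.49% (6.98 to 10.3) of distal control-only entries, beside 9.16% of all distal entries. The 3 members of highest rank with the receptor letters outside exons lay at promoters, and 60 bases around the letters (capitals) are given on the strand that carries them.
Ccdc63 member, chr5:122131726-122131785, plus strand: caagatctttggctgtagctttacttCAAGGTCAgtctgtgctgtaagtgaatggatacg
Rab35 member, chr5:115632517-115632576, minus strand: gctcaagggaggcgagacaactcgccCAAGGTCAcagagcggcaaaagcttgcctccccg
Larp1 member, chr11:58008489-58008548, plus strand: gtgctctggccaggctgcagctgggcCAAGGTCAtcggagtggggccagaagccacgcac
These members had fold enrichments of 3.23 and 9.0 (Ccdc63), 3.0 and 8.29 (Rab35) and 4.65 and 7.07 (Larp1), and none overlapped an LSD1 peak.

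The other searched letters were compared in the same windows. Letters of SP and KLF factors (GGGGCGG) were in 14.8% (11.9 to 18.3) of promoter members, 20.6% (19.9 to 21.3) of promoter shared entries and 12.4% (9.57 to 15.9) of promoter control-only entries, beside 20.4% of all promoter entries. In distal regions they were in 3.72% (2.90 to 4.76) of members, 6.05% (5.48 to 6.67) of shared entries and 4.29% (3.24 to 5.66) of control-only entries, beside 5.57% of all distal entries. ETS letters (CCGGAAGT) were in 1.07% of promoter members and 1.91% of all promoter entries, and NRF1 letters (GCGCATGC) in 0.644% and 1.22%. E-box letters (CACGTG) were in 6.22% of promoter members and 6.42% of all promoter entries. In distal members the letters of liver factors were found at shares close to those of all distal entries, with 5.83% and 5.75% for FOXA (TGTTTAC), 4.65% and 4.23% for C/EBP (TTGCNCAA) and 1.30% and 0.988% for HNF4A (CAAAGTCCA). A match describes letters only and is no evidence of binding.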

How the data were processed

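ChIP-seq peak lists of mouse liver were analyzed for 12 samples in 6 groups of 2. The authors mapped reads to mm10 with Bowtie2, called narrow peaks per library with MACS2, and intersected both libraries' peaks with bedtools 2.25.0, per the labels and methods. The control libraries are named input in the labels and IgG in the methods. The deposited fold enrichment is a ratio from MACS. The deposited −log10 p-value and −log10 q-value columns are also the authors' MACS output. Listed p-values reach 0.049 in the LSD1-LKO list, while the methods name 0.01. Scores and summit offsets (12 columns) were not used. The lists give no reads, so the depth is unknown. Nothing says whether the 2 libraries of a group came from separate animals.

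Here, members were found by interval overlap of at least 1 bp, with scipy 1.17.1, pandas 2.3.3 and numpy 2.4.6 (Python 3.11.15), checked with bedtools 2.31.1 and tested on simulated data. Figures used matplotlib 3.10.9. Genes came from GENCODE mouse release M21. Chromosome names and interval ends were checked against GRCm38. A gene is the protein-coding gene whose TSS is nearest to the center of the interval. Shares have 95% Wilson intervals. No test was made, because the rule used the same values and regions are not replicates. Windows for printed sequence exclude exons of GENCODE and RefSeq. Members and the 23 gene lists were chosen with earlier results of these data known. Named are the 10 promoter and 10 distal members of highest rank, the 5 of largest overlap, the 5 promoter and 5 distal members of highest rank with an LSD1 peak, the 5 genes with most members (ties by gene name), up to 3 genes per list, the 3 members above and 3 entries below the threshold, and genes said to be chosen after their values were seen. Some genes behind list counts are not reported here. Some lists are given with the full set of their genes that had members. Zfp217, Ccdc63, Rab35 and Larp1 were named after their values were seen. The 356 mitochondrial genes were matched by symbol or synonym. Alternatives changed the minimum overlap, p-value, control interval, libraries, promoter and LSD1 overlap.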

Additional observations from a re-analysis of the deposited data

How the results depend on the processing

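Members had a lower promoter share than shared entries under all 17 alternatives run for it, and lower LSD1 shares under all 54 run for them, though not in every class of H3K4me2 strength (distal regions at a mean −log10 p-value of 6 to 9 had 16.3% against 14.8%). Sizes moved more. The number of members was 5638, 773 or 329 at a minimum overlap of 400, 800 or 1000 bp, 457 at p-values at or below 1e-05 and 1307 with control intervals widened by 2 kb, and 2240 to 7620 with 1 library left out. As a share of LSD1-LKO entries it was 17.7%, 5.46% and 3.31% at those overlaps, 3.66% at that p-value, 8.10% and 6.26% with control widened by 500 bp or 2 kb, 13.3% when control had to cover 50% of an entry, 8.19% when the partner interval also had to be free of control, 10.7% with shared partner peaks counted once, and 10.7% to 24% with 1 library left out. Promoter shares of members were 32.6% and 43.2% at 800 and 1000 bp, 49.2% at the stricter p-value, 19.4% and 27.8% for promoters of 500 bp and 2 kb, 15.4% with 1 TSS per gene, 27.3% with genes of all types, 19.9% by center, and 14.2% to 23.9% with 1 library left out. LSD1 shares of all, promoter and distal members were 18.6%, 22.6% and 16.7% at 800 bp, 23.7%, 27.5% and 20.9% at 1000 bp, 23.9%, 27.1% and 20.7% at the stricter p-value, 9.67%, 11.6% and 9.11% when the overlap had to reach 50%, 21.7%, 27.9% and 19.9% within 1 kb, 1.68%, 3.43% and 1.18% for LSD1 peaks of p at or below 1e-05, and 12%, 14.8% and 11.2% in equal windows. Shared entries had 32.9%, 36.7% and 22.8% at 800 bp, 35.9%, 39% and 25.6% at 1000 bp and 33.9%, 36.5% and 24.2% at the stricter p-value, so the distal gap narrowed to 20.9% against 25.6% and 20.7% against 24.2%. LSD1 peaks of p at or below 0.01 gave 13% for all and 11.8% for distal members. With 1 library left out they were 11.5% to 15.4%, 12.8% to 20.7% and 11.2% to 13.8%, the lowest with the second-listed LSD1-LKO intervals alone. Leaving out a library means that its intervals were not used, while every listed entry still had a peak in both libraries of its group. The cause of these shifts was not tested. No paired analysis was possible because the lists carry no replicate numbers and the results come from no test.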
